A study of Mus musculus with 33 samples.

Results

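The libraries described here are the Igk VDJ-seq libraries of wild-type, Wapl(+/+), mice, which were chosen by their genotype and locus labels. They comprise 6 libraries of pro-B cells and 4 of pre-B cells, 10 of the 33 samples of the series. All came from C57BL/6 bone marrow of mice that the study's methods give as 4 to 5 weeks old. The cells were sorted ex vivo, with gates that included Kit+CD25- for pro-B cells and Kit-CD25+ for pre-B cells. No other allele or agent was named for these groups. VDJ-seq isolates joined V and J segments from genomic DNA and reads which V gene each joint holds, so no RNA was measured and markers of the cell types could not be checked in these data. Each library holds 1 deposited percent value for each listed V gene of the kappa locus (IGKV genes), and the total behind these percentages was not given in the sources used here. Here every value was divided by the sum over all IGKV genes of its library, so that usage is a percentage of all V-J joints of that library. The unscaled sum served as the level of Igk rearrangement. The files give percentages and no number of sequences, so the depth of a library is treated as unknown and no interval for counting error is given.

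The kappa light chain locus holds V genes and J segments but no D segments. In B cell development the heavy chain locus is assembled first, in pro-B cells, and most kappa joints form later, in pre-B cells, after a heavy chain has been expressed. The RAG recombinase cuts beside a recombination signal sequence (RSS), which consists of a conserved heptamer, a spacer and a conserved nonamer. A V gene in the same orientation as the J segments joins by deletion of the DNA between them, and a V gene in the opposite orientation joins by inversion. The V genes span 3.15 Mb of chromosome 6 in the mm9 assembly, with 77 in forward and 86 in reverse orientation, and the study's gene list classifies 92 as functional and 60 as pseudogenes.

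The RSSs of 12 V genes are shown so that some of the genes with a stage difference can be compared with relatives that carry the same or a similar signal. They were read from mm9 on the strand of the gene, 3′ of each V gene, with heptamer and nonamer in capitals and the 12-base spacer in lower case. The first 6 belong to genes that were lower in pre-B cells, the next 4 to genes that were higher and the last 2 to genes that passed no test.
IGKV1-135: CACAGTGattcagacccgaACAAAAACT
IGKV19-93: CACAGTGatacaaatcataACAAAAACC
IGKV10-95: CACAATGatataagtcataACATAAACC
IGKV10-96: CACAATGatataagtcataACATAAACC
IGKV1-117: CACAGTGatacagaccctaACAAAAATA
IGKV4-86: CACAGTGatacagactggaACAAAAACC
IGKV4-77: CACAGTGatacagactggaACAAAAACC
IGKV4-73: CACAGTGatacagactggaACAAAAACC
IGKV6-17: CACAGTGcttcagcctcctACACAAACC
IGKV8-16: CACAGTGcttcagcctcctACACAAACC
IGKV3-2: CACAGTGctccagggctgaACAAAAACC
IGKV1-133: CACAGTGatacagactctaTCAAAAACT

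Igk rearrangement was low in every pro-B library and high in every pre-B library. The IGKV values as deposited summed to 0.176%, 0.0790%, 0.175%, 0.0740%, 0.172% and 0.117% in pro-B replicates 1 to 6. In pre-B replicates 1 to 4 the sums were 4.87%, 5.32%, 6.77% and 5.93%. The groups did not overlap, and the means of 0.132% ± 0.0487 (SD, n = 6) and 5.72% ± 0.820 (SD, n = 4) differed 43.2-fold (exact permutation test, two-sided, 210 arrangements, p = 0.00476, the smallest p that this design allows). The lowest pre-B sum was 27.7-fold above the highest pro-B sum. Within the series of experiment numbers that holds libraries of both stages the ratio was 52.3. A difference in the share of cells with a joint and a difference in joints per cell cannot be told apart in bulk DNA.

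**Figure D1:**
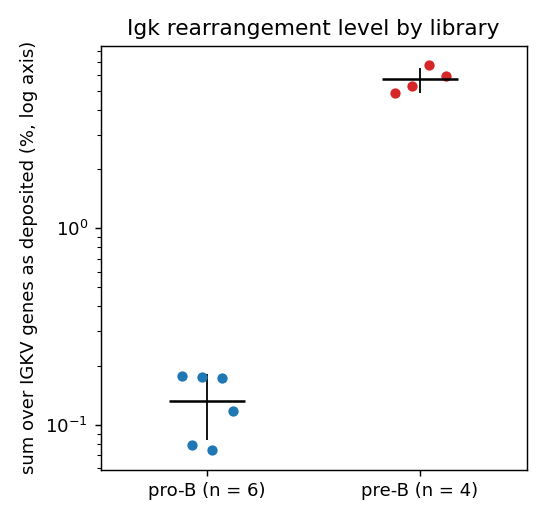
Sum of the deposited values over all IGKV genes in each library, on a log axis in percent, with 1 point per library, the mean as a horizontal line and the SD as a vertical line. All 6 pro-B libraries sit between 0.0740% and 0.176%, and all 4 pre-B libraries sit between 4.87% and 6.77%.

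The rise was seen at every V gene tested, but to different extents. Of the V genes listed, 105 had a mean usage of at least 0.05% over the 10 libraries and together held 99.8% of the pro-B and 99.7% of the pre-B joints. In unscaled values all 105 were higher in each pre-B library than in any pro-B library. The lowest pre-B sum was 27.7-fold above the highest pro-B sum, so this reflects the level and is not separate evidence on single V genes. The ratio of the pre-B to the pro-B mean of the unscaled values had a median of 57.7, and was lowest, at 17.7, for IGKV1-135. The differences in usage described below are differences in this ratio, since no tested gene became rarer in unscaled terms.

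Pro-B libraries were also less alike than pre-B libraries. The profile distance between 2 libraries, defined as the percentage of joints that would have to be moved to another V gene to make them equal, averaged 3.67 points over the 6 pairs of pre-B libraries and 21.5 points over the 15 pairs of pro-B libraries. Across the stages it ranged from 17.04 to 45.0 points. The smallest value above 0 was also larger in each pro-B library (0.0398% to 0.610% of joints) than in any pre-B library (0.00177% to 0.0122%), and the part of sampling in the spread within pro-B cells was not tested. The distance between the 2 mean profiles was 23.9 points, with p = 0.00476 by a one-sided exact permutation test. Across all listed genes the mean profiles had a Pearson r of 0.81 and a Spearman rho of 0.96, which describe genes that share libraries and are not independent.

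Pro-B replicate 2 stood apart from the other libraries. It listed 102 V genes at 0, against 53 to 63 in the other pro-B libraries and 46 to 49 in the pre-B libraries, and its smallest value above 0 was 0.610% of its joints. In the other pro-B libraries the smallest value above 0 lay between 0.0398% and 0.0840%. Without pro-B replicate 2 the distance between the mean profiles was 21.8 points (exact permutation test, p = 0.00794, the smallest p possible with 9 libraries) and the mean distance within pro-B cells was 16.7 points. Of the listed genes, 57 were above 0 in all 10 libraries and 46 were at 0 in all 10. None was seen in a pro-B library and in no pre-B library, while 4 were listed at 0 in every pro-B library and above 0 in some pre-B library, at a mean of at most 0.0167%.

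Usage was concentrated on fewer V genes in pro-B cells. The 10 most used genes of a library held 32.4% to 50.6% of the joints in pro-B cells (median 39.4%, n = 6) and 23.6% to 24.5% in pre-B cells (n = 4). The effective number of V genes, the exponential of the Shannon entropy, ran from 37.7 to 69.7 in pro-B libraries (median 59.0, n = 6) and had a median of 82.1 and a highest value of 82.6 in pre-B libraries (n = 4), and the groups did not overlap in either measure (exact permutation test, adjusted p = 0.0110 for both, adjusted over 15 sums and summaries). The number of V genes at 0 was 66.2 ± 17.9 in pro-B and 47.3 ± 1.26 in pre-B cells (adjusted p = 0.0255 by the exact permutation test), and this call was lost on leaving out any one of the pre-B libraries, although the difference of -18.9 genes stayed between -19.5 and -18.5. Fewer sequences would lower the effective number and raise the number of genes at 0, and the part of depth in these differences was not tested. Without pro-B replicate 2 the effective number in pro-B cells averaged 61.7 and the number of genes at 0 averaged 59.0, with a difference of -11.75.

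Along the locus, joints shifted towards the J segments in pre-B cells, though not evenly. The 94 genes of the 3′ part, from IGKV3-1 to IGKV4-79, held between 31.7% and 43.7% of the joints in pro-B libraries, with a median of 37.9%. In the pre-B libraries they held 56.4%, 56.4%, 56.9% and 57.8%. The groups did not overlap, and the means of 37.7% ± 5.03 and 56.8% ± 0.658 (SD) differed by 19.1 points (exact permutation test, p = 0.00476, adjusted p = 0.00714). The boundary of this part was named by the study on these libraries, so the sum is not independent evidence of a boundary there. Weighted by usage, the mean distance of a joined V gene from the J-proximal end of the gene list was 1815 kb ± 77.2 in pro-B and 1527 kb ± 12.5 in pre-B cells (adjusted p = 0.00714 by the same exact permutation test).

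**Figure D2:**
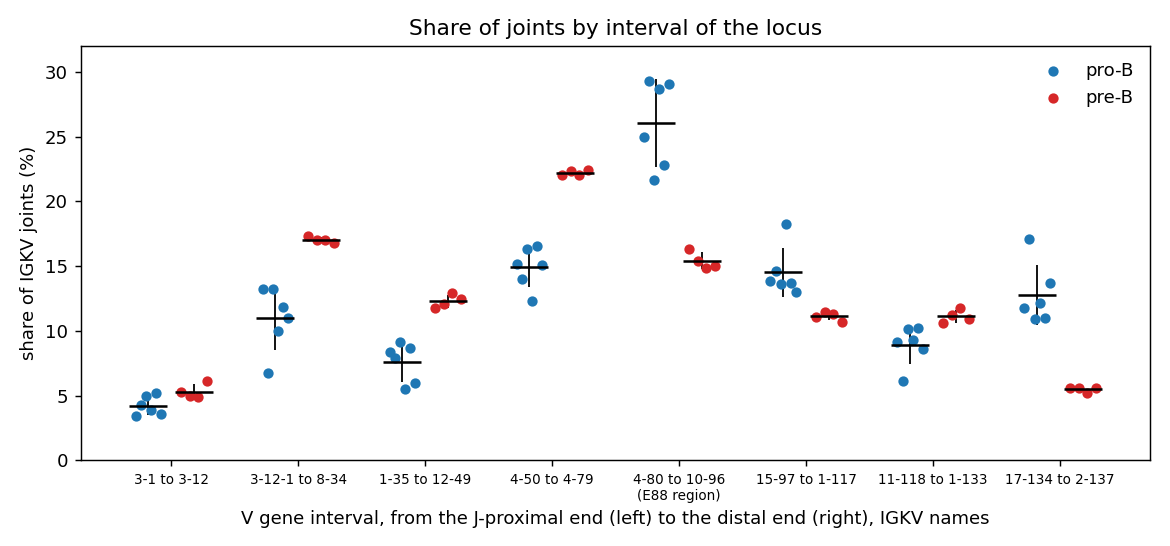
Share of IGKV joints in percent for 8 consecutive intervals of V genes, from the J-proximal end on the left to the distal end on the right, with 1 point per library, horizontal lines for means and vertical lines for SD. The 4-80 to 10-96 and 17-134 to 2-137 intervals are lower in pre-B cells, and the 11-118 to 1-133 interval between them is higher.

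The loss of share in pre-B cells fell on 3 of the 4 intervals of the 5′ part. The 22 genes of the E88 region, from IGKV4-80 to IGKV10-96 around the element that the study's gene list names E88 enhancer, held 26.1% ± 3.39 of the pro-B joints and 15.4% ± 0.662 of the pre-B joints. Their lowest pro-B library stood at 21.7% and their highest pre-B library at 16.3%. The 5 genes at the distal end, IGKV17-134 to IGKV2-137, held 12.8% ± 2.34 in pro-B and 5.50% ± 0.209 in pre-B cells, 0.431 times the pro-B share. IGKV1-135 alone held 11.3% and 4.43% of all joints and so most of this share, and 3 of the 5 genes were listed at 0 in all 10 libraries. The 23 genes from IGKV15-97 to IGKV1-117 held 14.5% ± 1.91 and 11.1% ± 0.333. None of these intervals overlapped between the groups, and each had an adjusted p of 0.00714 by the exact permutation test (n = 6 and 4).

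The 19 genes from IGKV11-118 to IGKV1-133 lie between IGKV1-117 and the distal end and moved the other way. They held 8.92% ± 1.52 of the pro-B joints, with single libraries at 6.10% to 10.2%, and 11.1% ± 0.491 of the pre-B joints, with single libraries at 10.6% to 11.8%. The difference of 2.19 points passed the exact permutation test (adjusted p = 0.0110). It did not pass without pre-B replicate 2 or without pre-B replicate 3 (adjusted p = 0.0549 each), nor with the 2 most used V genes taken out of the total, where it was 1.14 points (adjusted p = 0.179).

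The 3 intervals between IGKV3-12-1 and IGKV4-79 all gained share. The 42 genes from IGKV4-50 to IGKV4-79, mostly of the IGKV4 family, rose from 14.9% ± 1.57 to 22.2% ± 0.217. The 24 genes from IGKV3-12-1 to IGKV8-34 held 6.71% to 13.3% in pro-B and 16.8% to 17.3% in pre-B libraries, and the 16 from IGKV1-35 to IGKV12-49 rose from 7.60% ± 1.51 to 12.3% ± 0.487 (exact permutation test, adjusted p = 0.00714 for each). Groups did not overlap in any of the 3. Within the series of experiment numbers shared by both stages (3 pro-B and 2 pre-B libraries), the 3′ part averaged 36.5% and 57.3%, the E88 region 26.8% and 14.9% and the 5 distal genes 12.3% and 5.39%, and each kept its direction.

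The 12 genes nearest to the J segments, IGKV3-1 to IGKV3-12, showed a small difference that depended on the libraries included. They held 4.22% ± 0.720 of the pro-B and 5.31% ± 0.556 of the pre-B joints, and the library ranges overlapped (exact permutation test, adjusted p = 0.0476). The call was lost on leaving out pro-B replicate 1, 2, 4 or 6 or any pre-B library, with differences of 0.83 to 1.28 points over all libraries left out in turn. All 8 of these genes that were tested carry the RSS printed for IGKV3-2, which matches the consensus heptamer CACAGTG and nonamer ACAAAAACC in full, and no single one passed the test of usage. IGKV3-1, the V gene nearest to the J segments, had 0.530% ± 0.382 in pro-B and 0.315% ± 0.0178 in pre-B cells. IGKV3-2 had 1.18% ± 0.218 and 1.55% ± 0.143, IGKV3-4 had 0.585% ± 0.413 and 0.689% ± 0.0939, and IGKV3-12 had 0.443% ± 0.247 and 0.749% ± 0.0990. The same RSS thus stood beside genes that differed in mean usage in pre-B cells by more than the SD of either.

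Single V genes were compared with limma on log2(percentage + 0.05), on which scale the differences below are pre-B minus pro-B. At an adjusted p below 0.05, 20 of the 105 genes were called (19%), of which 9 were higher (8.57%) and 11 lower (10.5%) in pre-B cells. The library ranges did not overlap at 37 genes (35.2%), 26 of them higher in pre-B cells and 11 lower, and 19 of the 20 called genes were among these 37. Without any call, 81 of the 105 genes had a positive and 24 a negative log2 difference, and the median difference was 0.65. Usage sums to 100, and the 11 lower genes together held 39.1% of the pro-B and 19.02% of the pre-B joints. Values at 0 in pro-B libraries enter the log2 means as log2(0.05), and their part in this upward shift was not tested. Relative to each library's median gene, which was 0.35 higher in pre-B cells on the log2 scale, no gene was called higher and 15 were called lower. The calls of higher usage therefore hold for the share of joints and not relative to the median gene. The number of calls moved between 3 and 44 when single libraries were left out, with 44 without pro-B replicate 2, 12 without pro-B replicate 4 and 6, 4, 3 and 3 without pre-B replicates 1 to 4. In each of the last 4 fits no gene was called higher, so all 9 calls of higher usage needed every pre-B library. With later against earlier experiment numbers as a covariate, 7 genes were called higher and 8 lower.

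**Figure D3:**
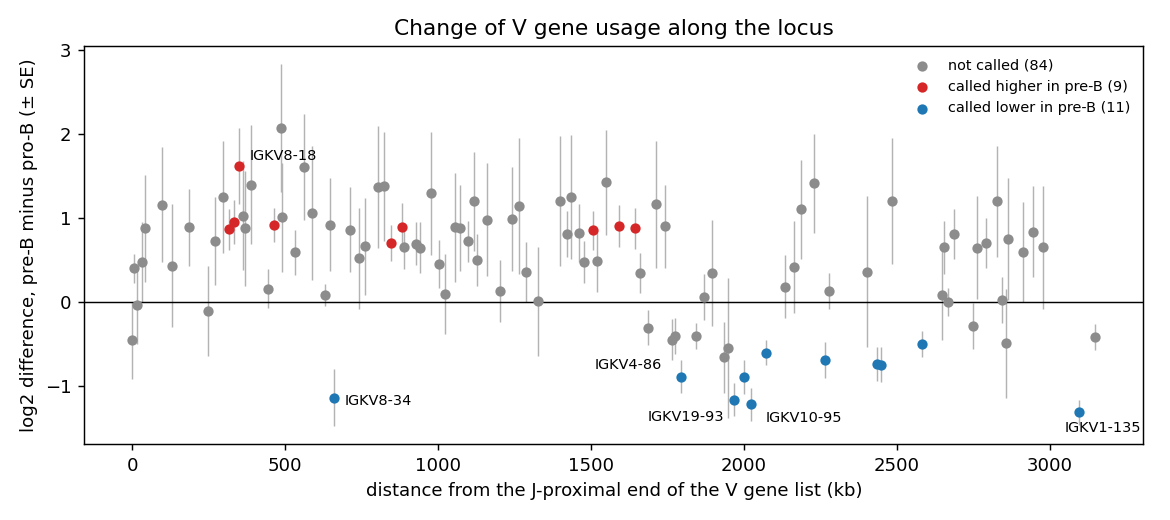
Log2 difference in usage, pre-B minus pro-B, of the tested V genes with known coordinates (104 of 105) against the distance in kb from the J-proximal end of the gene list, with bars for the SE. Genes called lower cluster between IGKV4-86 and IGKV10-96 and beyond, with IGKV8-34 as the one called lower gene of the 3′ part.

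IGKV1-135 was the most used V gene in every library of both stages and showed the largest fall. It held 10.2%, 15.9%, 9.40%, 10.9%, 9.23% and 12.2% of the joints in pro-B replicates 1 to 6. In pre-B replicates 1 to 4 it held 4.56%, 4.50%, 4.16% and 4.50%. Each pro-B library was above each pre-B library, and the log2 difference was -1.32 ± 0.15 (SE, limma adjusted p = 0.00011). The gene lies at chr6:67559739-67560502 in mm9, in forward orientation and 3112 kb from the first J segment. Its RSS differs from the consensus by 1 base, in the nonamer. Its neighbour in family and sequence, IGKV1-133, is 96.5% identical to it and carries an RSS with 2 mismatches. It ran from 0 to 1.22% in pro-B libraries, the highest in pro-B replicate 2, and from 0.304% to 0.5997% in pre-B libraries, and its log2 difference of 0.65 ± 0.73 (SE, limma adjusted p = 0.488) was 1.04 without that replicate and 0.11 without pro-B replicate 1. IGKV2-137, the most distal functional V gene of the list, held 1.45% ± 0.216 and 1.07% ± 0.0406, with no overlap between the groups but an adjusted p of 0.0852 by limma.

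IGKV19-93 and the family 10 genes beside it carried most of the fall in the E88 region. IGKV19-93, in reverse orientation at chr6:68686291-68686758, was the second most used V gene at both stages. Its share was 5.37%, 7.93%, 4.36%, 9.49%, 5.73% and 8.54% in pro-B replicates 1 to 6 and 3.14%, 2.99%, 2.79% and 2.83% in pre-B replicates 1 to 4. The pro-B values spread widely, yet the lowest was above the highest pre-B value, and the log2 difference was -1.17 ± 0.20 (SE, limma adjusted p = 0.00302).

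IGKV10-95 fell from rank 3 to rank 28 of usage. It held 2.29% to 4.47% of the joints in pro-B libraries, with a mean of 3.22% ± 0.920, and 1.39%, 1.31%, 1.32% and 1.22% in the pre-B libraries. The log2 difference was -1.22 ± 0.19 (SE, limma adjusted p = 0.0020). Its relatives IGKV10-94 and IGKV10-96 also fell, by 0.89 and 0.61 on the log2 scale (limma adjusted p = 0.0142 and 0.0196). IGKV10-94 held 1.87% ± 0.473 in pro-B and 0.959% ± 0.108 in pre-B cells, and IGKV10-96 held 3.16% ± 0.504 and 2.04% ± 0.204. The 3 genes have the same 28-base RSS, in which heptamer and nonamer each depart from the consensus by 1 base. Reads of IGKV10-94 and IGKV10-95 may have been split between them, since the 2 are 97.2% identical.

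IGKV1-135, IGKV10-95 and IGKV19-93 were the only genes called after leaving out each of the 10 libraries in turn, and the only 3 called with Holm's adjustment. They were not called by the exact permutation test per gene with Benjamini-Hochberg adjustment, which called none of the 105 genes and gave 36 at an unadjusted p below 0.05, against 35 for limma.

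The 11 genes called lower were functional but for IGKV15-103, and 10 of them lay in the 5′ part. Of all 105 tested genes, 90 were functional, so the class of the lower genes was close to that of all tested genes. From the E88 region to the distal end, the intervals of the 5′ part held 15, 11, 14 and 2 tested genes. Of these, 5, 4, 0 and 1 were called lower. IGKV4-86 held 1.57% to 3.05% of the pro-B joints and 0.967% to 1.18% of the pre-B joints, with a log2 difference of -0.89 ± 0.19 (SE, limma adjusted p = 0.0142). Beyond the E88 region, IGKV14-111 and IGKV15-103 fell by 0.75 and 0.70 on the log2 scale. IGKV1-110 and IGKV1-117, which share an RSS, fell by 0.74 and 0.50 (limma adjusted p = 0.0297 and 0.0355). IGKV1-110 held 3.15% ± 0.963 in pro-B and 1.79% ± 0.0845 in pre-B cells, and was the one called gene whose library ranges overlapped, with pro-B replicate 3 at 1.91% and the highest pre-B library at 1.92%. IGKV14-111 stood at 4.27% in pro-B replicate 2 and between 1.72% and 2.64% in the other pro-B libraries.

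IGKV8-34 was the one gene of the 3′ part that was called lower. Its share was 0.672%, 0.610%, 0.477%, 0.713%, 0.398% and 0.705% in pro-B replicates 1 to 6 and 0.300%, 0.245%, 0.209% and 0.202% in pre-B replicates 1 to 4. The groups did not overlap, and the log2 difference was -1.15 ± 0.34 (SE, limma adjusted p = 0.0348), against a median of 0.92 over the 19 tested genes of its interval. The call was kept in 3 of the 10 fits that left out a library. In the H3K27ac peak list of Rag1(Cre/Cre) pro-B cells, deposited in the same series from 1 library, a single peak overlaps the span of the V genes, at chr6:69989959-69992717. IGKV8-34 lies 1.39 kb from it, the nearest of all V genes, and the relation was not tested. IGKV8-34 carries the consensus heptamer and 1 mismatch in the nonamer.

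**Figure D4:**
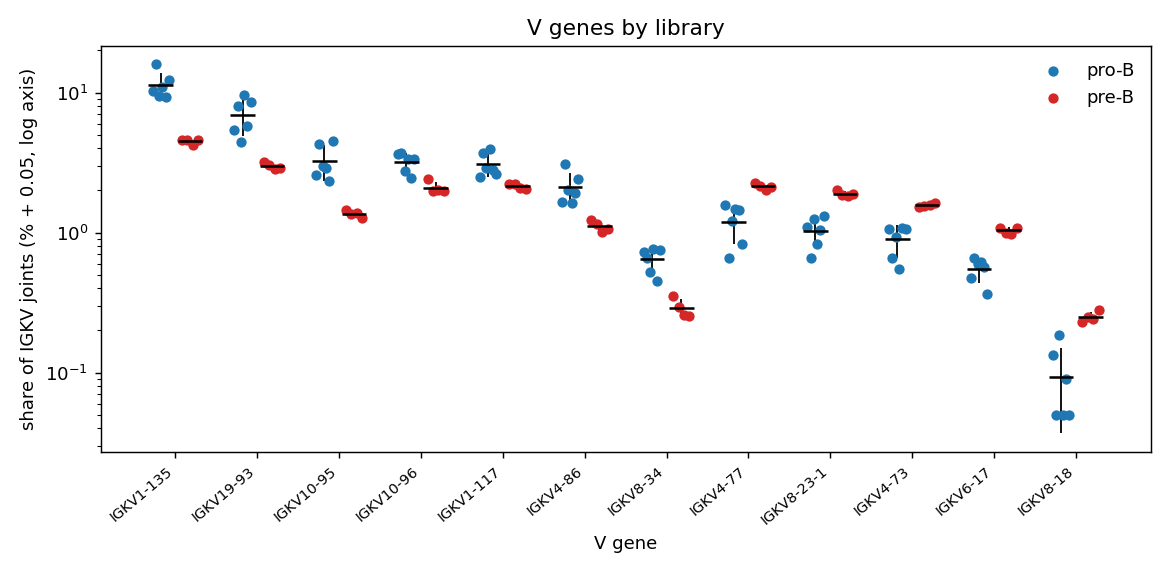
Share of IGKV joints, plus 0.05 percentage points and on a log axis, of 12 V genes in each library, with horizontal lines for means and vertical lines for SD. The 7 genes on the left are lower in all 4 pre-B libraries than in any pro-B library, and the 5 on the right are higher.

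The 9 genes called higher lay between IGKV8-16 and IGKV4-78 in the 3′ part. From the J-proximal end on, the intervals of that part held 8, 19, 11 and 25 of the 105 tested genes. Of these, 0, 4, 2 and 3 were called higher. IGKV8-18 passed the filter on low values only through pre-B cells, so that its log2 difference of 1.63 ± 0.45 (SE, limma adjusted p = 0.0297) is given as a value and nothing is read from it. It was listed at 0 in pro-B replicates 2, 4 and 6 and at 0.0840%, 0.136% and 0.0398% in the other pro-B libraries, and held 0.178% to 0.231% in pre-B cells. Its value in pro-B cells was thus near the smallest that these libraries resolve, and its sequence is 98.2% identical to IGKV8-26. IGKV6-17 held 0.313% to 0.610% in pro-B and 0.932% to 1.03% in pre-B libraries, a log2 difference of 0.95 ± 0.26 (SE, limma adjusted p = 0.0297). IGKV8-23-1, classed as an open reading frame, rose from 0.981% ± 0.245 to 1.84% ± 0.0752 (limma adjusted p = 0.0142), and no RSS close to the consensus was found within 5 bases of its annotated end. IGKV4-77, classed as a pseudogene, rose from 1.15% ± 0.372 to 2.09% ± 0.103 and had rank 6 among all V genes in pre-B cells. The remaining members of this group, IGKV4-73, IGKV4-78, IGKV5-43, IGKV8-16 and IGKV12-41, had log2 differences of 0.70 to 0.89. IGKV5-43 is 97.3% identical to IGKV5-45, and reads could have been shared between them.

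Several well used genes changed in rank without passing the test. IGKV11-125 had rank 15 in pro-B cells, with 0.610% to 2.03% per library, and rank 3 in pre-B cells, with 2.15% to 2.45% (limma adjusted p = 0.129). IGKV12-44 had ranks 17 and 4 (limma adjusted p = 0.108). IGKV9-120 held 1.39% ± 0.586 and 2.02% ± 0.0983, and IGKV4-79, the last gene of the 3′ part, held 0.769% ± 0.221 and 0.960% ± 0.0769.

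**Figure D5:**
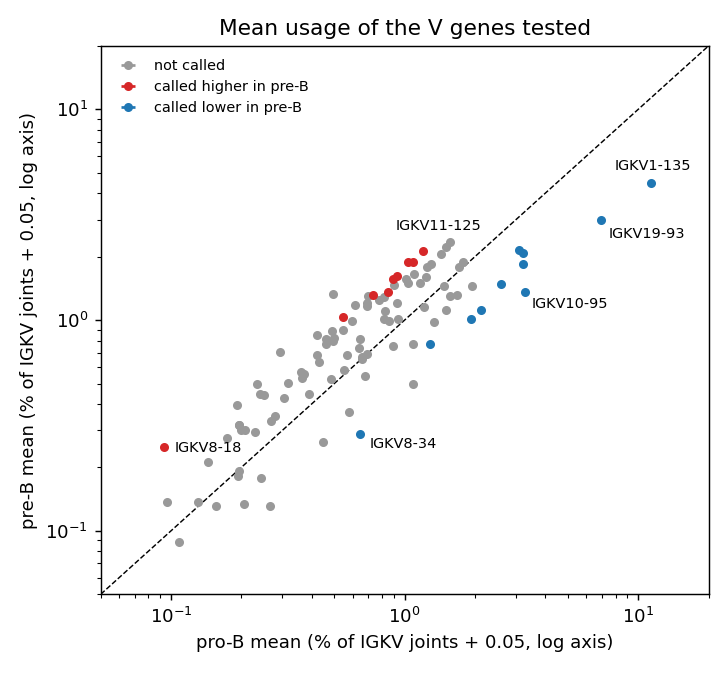
Mean usage of the 105 tested V genes in pre-B cells against pro-B cells, each plus 0.05 percentage points, on log axes, with the dashed line of equal usage. The genes used most in pro-B cells lie below the line and most of the others above it. The line compares mean percentages, so the genes below it are not the same set as the 24 with a negative log2 difference.

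Summed by family, 11 of 20 families passed the exact permutation test, 7 higher and 4 lower in pre-B cells. Family 1 fell from 20.6% ± 3.53 to 11.5% ± 0.326, family 10 from 8.25% ± 1.65 to 4.31% ± 0.366, and the single-member family 19 from 6.90% ± 2.03 to 2.94% ± 0.163 (adjusted p = 0.0381, 0.0381 and 0.0408 by the exact permutation test). Family 15 also fell, from 1.23% ± 0.334 to 0.725% ± 0.0322. Family 4, the largest with 34 genes, rose from 18.8% to 22.9% per pro-B library to 26.2% to 26.9% per pre-B library, and family 8 from a mean of 6.56% ± 2.25 to 11.1% ± 0.128 (adjusted p = 0.0381 for both, exact permutation test). Families 5, 6 and 12 rose as well. Families 11 and 20 also passed this test, but each rests on 1 gene with joints, IGKV11-125 and IGKV20-101-2, which limma did not call. With a pre-B library left out, 0 to 5 families passed. The test cannot give as small a p with 3 pre-B libraries, and the difference of family 1, for one, stayed between -9.93 and -7.98 points with any single library left out.

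Several V genes share the RSS of another V gene. The 28 bases printed for IGKV4-86 occur 3′ of 13 V genes, all tested, whose log2 differences ran from -0.89 to 1.25. IGKV4-86, the only member in the E88 region, was called lower, while IGKV4-73 and IGKV4-77, from the interval next to it, were called higher. The 7 genes with the RSS of IGKV6-17 and IGKV8-16 all had positive differences, from 0.08 to 1.61, as did 81 of all 105 tested genes, and 2 were called higher, against 8.57% of all. All 3 genes with the RSS of IGKV10-95, which are neighbours of 1 family, were called lower, against 10.5% of all.

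Matches to the consensus RSS were counted for called genes and for all genes. The consensus heptamer CACAGTG, searched on the strand of the gene, stood 3′ of 107 of 162 V genes with coordinates (66.0%) and of 90 of the 104 tested (86.5%). Among called genes it stood 3′ of 8 of the 11 lower and 7 of the 9 higher. The consensus nonamer ACAAAAACC stood beside 38 of the 162 (23.5%) and 36 of the 104 tested (34.6%), among them 2 of the 11 lower and 3 of the 9 higher genes. The octamer ATTTGCAT, a motif of immunoglobulin promoters, was searched on both strands in the 250 bases before each V gene and was found at 94 of the 162 (58.0%), 74 of the 104 tested (71.2%), 8 of the 11 lower and 5 of the 9 higher genes. These are matches of letters in fixed windows and were not tested.

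Orientation and class of the V genes also differed in share. Forward genes held 43.5% to 48.0% of the joints in pro-B and 37.6% to 38.1% in pre-B libraries, and the mean difference of -7.80 points was -5.96 points with the 2 most used genes taken out of the total (exact permutation test, adjusted p = 0.00714 and 0.00794). Functional genes held 94.3% ± 1.17 and 91.0% ± 0.107 (exact permutation test, adjusted p = 0.00714). The pseudogenes together held 2.94% of the joints in pro-B and 5.19% in pre-B cells, a sum that was not tested. Of the 9 pseudogenes tested singly, 1 was called higher, IGKV4-77, which held 2.09% in pre-B cells. Of all 105 tested genes, 8.57% were called higher.

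The same comparison in Wapl∆P1,2 homozygous mice, which lack a Pax5-binding site in the promoter of Wapl, the gene of a cohesin-release factor, and another such site downstream of that gene, gave values that can be set beside these (6 pro-B and 4 pre-B libraries). The E88 region held 36.9% ± 4.32 and 23.7% ± 2.70 there, a difference of -13.2 points against -10.7 in wild type. The 3′ part differed by 15.5 points against 19.1. The 5 most distal genes held 7.21% ± 1.47 and 6.01% ± 0.395, a difference of -1.20 points against -7.27, and the 12 proximal genes differed by -0.99 points against 1.09. The differences between these sums were not tested. For single genes, an interaction term in limma over all 20 libraries was called at 2 of 106 genes (1.89%). IGKV1-135 fell less in the mutant, from 6.26% ± 1.27 to 4.87% ± 0.330, with an interaction of 0.98 ± 0.21 on the log2 scale (SE, limma adjusted p = 0.0110). IGKV6-23, named here for being the other called gene, stood at 0.131% ± 0.0920 and 0.727% ± 0.145 in the mutant and at 0.887% ± 0.247 and 0.965% ± 0.0645 in wild type (interaction 2.08 ± 0.47, SE, limma adjusted p = 0.0110). Its 0.0361% in mutant pro-B replicate 2 was the smallest value above 0 of that library. In mutant pro-B replicates 1 and 3 it held 0.0781% and 0.0656%, where the smallest values were 0.0390% and 0.0328%. Without wild-type pro-B replicate 2, the interaction was called at 10 genes.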

How the data were processed

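Igk VDJ-seq was performed on genomic DNA of sorted cells. Per the study's methods, DNA was sheared, ligated to adapters with unique molecular identifiers, enriched by extension of biotinylated J primers and sequenced paired-end on a MiSeq. For each V gene the authors deposited 1 percent value, already normalized. The handling of reads with more than 1 matching V gene is not given in the sources used here. IGKV4-52 and IGKV4-54 hold identical values in all 20 libraries and were tested as 2 genes, so such reads may have been divided between them. The deposited H3K27ac peak list carries a score of 0 for every peak, so only its intervals were used. Gene order, orientation, class and mm9 coordinates came from the study's gene list.

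Values were rescaled to 100 over the IGKV genes of a library. Single genes with a mean of at least 0.05% were tested with limma 3.58.1 (R 4.3.3, empirical Bayes with trend) on log2(percentage + 0.05), with Benjamini-Hochberg adjustment at 0.05. The sums were compared by two-sided exact permutation of the libraries in Python 3.11.15, adjusted over 15 sums and summaries or 20 families. The limma and permutation scripts were tested on simulated data. RSSs were taken at the position within 5 bases of the V gene's end with the fewest mismatches. Named genes are 12 that the study names or that end the intervals used here, the 8 higher and 8 lower called genes with the largest differences and no overlap, and the 5 most used at each stage. The others named, IGKV12-41, IGKV8-26, IGKV5-45, IGKV6-23, IGKV20-101-2, IGKV4-52 and IGKV4-54, were chosen after their values were seen. The members, lists and tests were chosen with earlier results of these data known. Labels do not say whether libraries came from separate mice, so p-values measure the spread between libraries. Experiment numbers form series, taken as a candidate batch although no source calls them one. Alternatives were other pseudocounts, filters, scales, denominators, adjustments and weights, the series, and each library left out.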

Additional observations from a re-analysis of the deposited data

Results flagged for a closer look

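In 90 groups of 4 or 6 libraries, 7 values lay far from the others of their group by Dixon's criterion at 95%, which chance alone would flag at about 1 in 20 groups. Pro-B replicate 2 listed 102 V genes at 0, against 53 to 63 in the other pro-B libraries, and held IGKV14-111 at 4.27% against 1.72% to 2.64%. Pro-B replicate 4 held 18.3% of its joints in IGKV15-97 to IGKV1-117, against 13.0% to 14.6%. Pre-B replicate 3 was low in the 5 most distal genes, at 5.18% against 5.59% to 5.61%, and in IGKV1-135 alone, at 4.16% against 4.50% to 4.56%. Pre-B replicate 1 held 90.8% in functional genes, against 91.0% in each of the others, and 2.35% in IGKV10-96, against 1.92% to 1.96%.

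The stage difference of 2 genes differed between wild-type and Wapl∆P1,2 homozygous cells by the interaction term of limma. The log2 stage difference, mutant minus wild type, was 0.98 at IGKV1-135, which fell less in the mutant, and 2.08 at IGKV6-23. Some mutant pro-B values of IGKV6-23 were at or near the smallest of their libraries.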

How the results depend on the processing

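No paired analysis was possible because the labels carry no replicate numbers that link pro-B and pre-B libraries. The rearrangement level and the profile distance kept direction under every alternative run and significance under each that gave a test, as did the sums other than those named next. The difference of IGKV3-1 to IGKV3-12 ranged from 0.83 to 1.28 points with single libraries left out and was 0.58 without the 2 most used genes. The difference of IGKV11-118 to IGKV1-133 ranged from 1.63 to 2.46 points and was 1.14 without those genes. The difference in genes at 0 ranged from -21.55 to -11.75 and was -8.67 among functional genes. The number of V genes called, 20, became 39 on percentages without a logarithm, 3 with Holm's adjustment, 0 with exact permutation per gene, 63 with array weights, 7 in the shared series alone, 15 with later against earlier experiments as a covariate, 13 without the 2 most used genes, and 3 to 44 with single libraries left out. It split into 28 higher and 11 lower without a logarithm, 46 and 17 with array weights, 2 and 5 in the shared series alone, 2 and 11 without the 2 most used genes, and 0 and 15 after median-centring. The 11 families called became 0 to 13, and the 2 interaction calls 2 to 10, with single libraries left out. The causes were not tested. Among results not called, family 16 ranged from -0.026 to 0.21 points and family 17 from -0.23 to 0.051, family 17 turned to 0.013 among functional genes, IGKV3-1 to 0.075 in the shared series alone and IGKV4-79 to -0.0076 after median-centring. Depth is unknown, and pro-B genes below about 0.1%, or 0.610% in pro-B replicate 2, rest on values near the smallest that the library holds.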
